A study of Rattus norvegicus with 4 samples.

Results

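Glycolysis and glucose uptake genes of the rat uterus were chosen by name, as 45 listed genes for glucose transporters, the enzymes from glucose to lactate, the kinases of pyruvate dehydrogenase, the pentose phosphate branch and glycogen metabolism. Of these, 37 had a probe set that the platform annotation gives to a single gene, out of 18166 genes tested, and each of the 37 had 1 such probe set. Tpi1, Gapdh, Eno1, Pkm and Pgd had only probe sets shared with other genes, and Hk1, Pgam1 and Gbe1 had none named here, so these 8 were not analysed here. The samples were the uterus of Sprague Dawley rats aged 10 to 12 weeks on day 5 of pregnancy, before implantation. In the ormeloxifene group the rats were fed Orm (ormeloxifene) once, on day 1 of pregnancy, at 1.25 mg per kg in gum acacia, and in the vehicle group they were given the vehicle alone. Each group had 2 arrays, labelled as biological replicates 1 and 2, and no allele or transgene was involved. The labels do not say how many rats gave RNA to each array.

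Glucose enters uterine cells through facilitative transporters and is trapped as glucose 6-phosphate by hexokinases. Glycolysis then yields pyruvate, which is either reduced to lactate and exported or passed to mitochondria through pyruvate dehydrogenase, an enzyme that its kinases switch off. Uterine tissue also stores glucose as glycogen, and stromal cells raise glucose uptake and lactate output when they become decidual. Ormeloxifene, an oral contraceptive, modulates oestrogen receptors selectively without being a steroid, and oestrogen and progesterone are known to act on glucose handling in the uterus. The comparison of ormeloxifene with vehicle asks which transcripts of this pathway differed shortly before implantation.

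No glycolysis or glucose uptake gene passed the test between ormeloxifene and vehicle, and most lay close to 0. Signals are log2 values after quantile normalization, and each difference is ormeloxifene minus vehicle on that scale with its standard error. Without a block, limma gave 0 of the 37 genes an adjusted p under 0.05 and 0 an unadjusted p under 0.05. Over all genes tested the corresponding shares were 0% and 2.2%. The differences ran from -0.55 for Hk2 to 0.46 for Pdk2, with a median of 0.01, beside a median of 0.02 over all genes. Of the 37 genes, 20 were higher and 17 lower in mean signal, or 54.1% higher, against 53.4% over all genes. The median size of a difference, whatever its sign, was 0.13 in the pathway and 0.13 over all genes. An absolute difference of at least 0.5 was seen in 1 of the 37 genes, Hk2, and in 3.63% of all genes. The 2 ormeloxifene arrays lay entirely above or below the 2 vehicle arrays in 9 of the 37 genes, a share of 24.3%, where 25.7% of all genes did so. It was 6 genes above, Slc2a3, Gpi, Pfkm, Pdk2, Pygb and Pygm, and 3 below, Hk2, Pdk1 and Pdk3, beside 13.9% and 11.8% of all genes. These shares sit at the background of the arrays. The median 95% interval of a member reached 0.54 to either side of its difference, a fold of 1.45, in the fit without a block. In RNA from whole tissue, fewer cells of a type and less RNA per cell cannot be told apart.

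Replicate number touched many of these values. Across genes, deviations from the group mean correlated at 0.475 between arrays of the same number, and exactly equal deposited values occurred 488 times between the arrays numbered 1 and 551 times between those numbered 2, against 0 in every other pair of arrays. The labels name no batch behind the numbers. With the number as a block, limma gave 2 of the 37 genes, Hk2 and Pdk2, an unadjusted p under 0.05, where 6.76% of all genes had one, and 0 an adjusted p under 0.05, where 0.0275% of all genes had one. Differences within each number are therefore given beside the results. With 2 arrays against 2, the smallest p that an exact permutation test can give is 0.333.

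**Figure D1:**
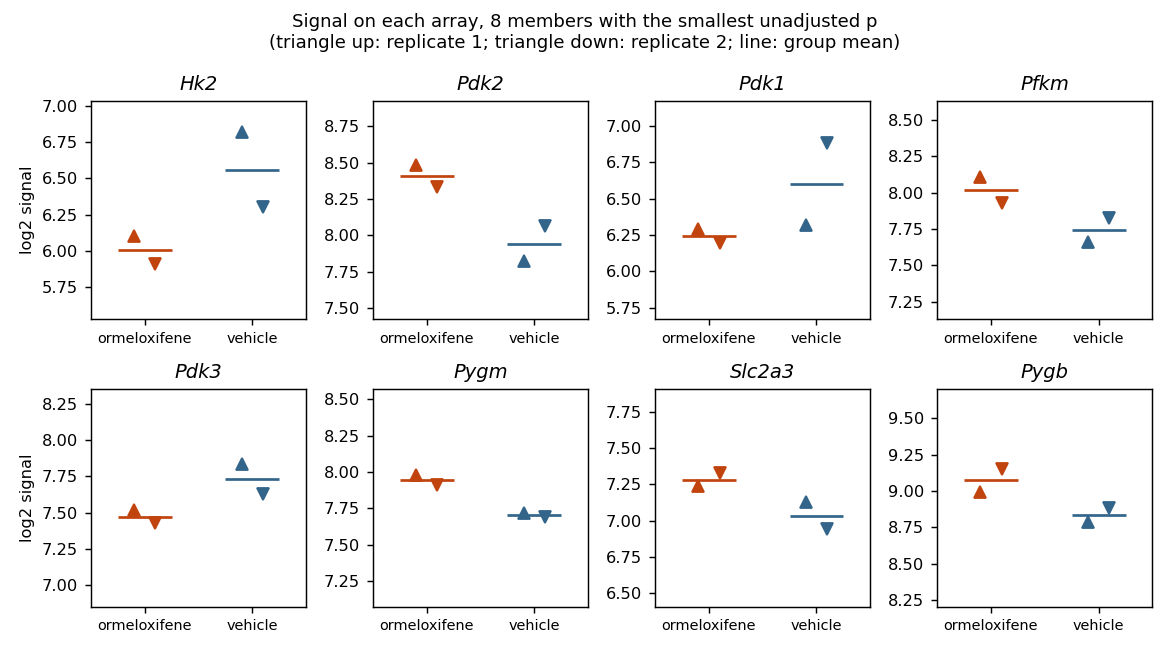
Log2 signal (vertical axis, same span in each panel) on each array for the 8 genes of the pathway with the smallest unadjusted p, ormeloxifene left and vehicle right; triangles are single arrays (up for replicate 1, down for replicate 2) and lines are group means of 2 arrays. In all 8 panels the groups do not overlap; the gap between group means is widest for Hk2, at -0.55.

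Hexokinase 2, which traps glucose as glucose 6-phosphate and is the inducible form in many tissues, had the largest difference of the 37 genes. Hk2 (probe set 17792516) had signals of 6.10 and 5.91 on the ormeloxifene arrays, against 6.82 and 6.30 on the vehicle arrays. Both ormeloxifene arrays were below both vehicle arrays, and vehicle replicate 1 stood highest. The difference was -0.55 ± 0.25, a 1.47-fold lower mean, with a 95% interval from -1.13 to 0.02 (limma, adjusted p = 1.00, unadjusted p = 0.0573). It was -0.71 within number 1 and -0.39 within number 2, and with the number as a block its adjusted p was 0.613. Without vehicle replicate 1 the difference was -0.29, where a lone array is taken to vary like the other group.

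The other genes at the entry into glycolysis gave no difference past the test. Hk3, a hexokinase known mainly from white blood cells, differed by -0.06 ± 0.21. Gpi, the isomerase that turns glucose 6-phosphate into fructose 6-phosphate, had signals of 10.25 and 10.34 with ormeloxifene, against 10.02 and 10.22 with vehicle. The groups did not overlap, but the difference of 0.17 ± 0.21 was smaller than its standard error. It was 0.09 on the values as deposited, 0.07 with arrays centred on their medians and 0.07 without vehicle replicate 1.

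The promoter window of Hk2 is printed as that of the gene with the largest difference, and those of Pdk2 and Ldha for comparison: Pdk2 had the largest difference in the other direction, and the Ldha window held the most matches. The windows run from 250 bases before to 50 bases after the annotated start, 5′ to 3′ on the gene's strand, from RefSeq (GRCr8). Capitals mark ACGTG or GCGTG on either strand, the core letters of the hypoxia response element. The E-box CACGTG, which contains one of these cores, was searched too.
Hk2, chr4:116841226-116841525, minus strand: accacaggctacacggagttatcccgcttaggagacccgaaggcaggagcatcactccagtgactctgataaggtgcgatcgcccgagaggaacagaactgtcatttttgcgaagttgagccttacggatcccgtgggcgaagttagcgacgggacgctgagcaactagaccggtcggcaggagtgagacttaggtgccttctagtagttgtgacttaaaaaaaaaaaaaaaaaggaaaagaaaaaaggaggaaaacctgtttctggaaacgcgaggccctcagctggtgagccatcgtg
Pdk2, chr10:80483863-80484162, minus strand: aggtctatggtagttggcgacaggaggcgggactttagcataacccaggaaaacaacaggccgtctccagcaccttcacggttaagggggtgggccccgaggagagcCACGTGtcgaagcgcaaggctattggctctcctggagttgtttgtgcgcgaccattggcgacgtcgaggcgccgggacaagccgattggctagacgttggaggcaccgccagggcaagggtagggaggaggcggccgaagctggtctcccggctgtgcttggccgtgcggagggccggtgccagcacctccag
Ldha, chr1:106507842-106508141, plus strand: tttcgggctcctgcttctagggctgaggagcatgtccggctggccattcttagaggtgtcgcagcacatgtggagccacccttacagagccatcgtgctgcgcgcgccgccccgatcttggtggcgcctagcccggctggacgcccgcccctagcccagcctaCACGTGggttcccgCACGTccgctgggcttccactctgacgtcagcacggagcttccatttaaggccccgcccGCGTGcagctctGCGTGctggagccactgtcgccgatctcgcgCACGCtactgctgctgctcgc
The core letters matched 0 times in the Hk2 window, 2 times in the Pdk2 window and 6 times in the Ldha window, with overlapping matches on the strands counted separately. The E-box matched once in each of the Pdk2 and Ldha windows and 0 times in that of Hk2. Windows were found for 34 of the 37 genes, 36 windows in all because Aldoa had 3. The hypoxia core letters occurred in 25 of the 36 windows, or 69.4%, against 41.6% of all promoters and 45.8% of those of protein-coding genes. The E-box occurred in 5 of the 36, or 13.9%, against 6.42% and 7.02%. These matches describe letters in a window and were not tested.

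Glucose transporters differed by -0.07 to 0.25, with 4 of 5 higher in mean signal and 0 at an unadjusted p under 0.05. Slc2a1, the widespread transporter GLUT1, had signals of 8.34 and 8.16 with ormeloxifene, against 8.34 and 8.30 with vehicle. The groups overlapped, and the difference of -0.07 ± 0.21 had a 95% interval from -0.55 to 0.41. Slc2a3, the high-affinity transporter GLUT3, had signals of 7.24 and 7.33 with ormeloxifene, against 7.13 and 6.94 with vehicle. Here the groups did not overlap, and the difference was 0.25 ± 0.21, 0.11 within number 1 and 0.39 within number 2.

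The insulin-responsive transporter Slc2a4 (GLUT4) had signals of 6.96 and 6.57 with ormeloxifene, against 6.94 and 6.37 with vehicle. Its arrays were alike by number rather than by group, and the difference was 0.11 ± 0.27. Slc2a8, a transporter found on intracellular membranes, differed by 0.10 ± 0.22. Slc5a1, the sodium-coupled transporter SGLT1, differed by 0.13 ± 0.28 at a dim probe set, the 18.4th percentile of mean signal, and by -0.29 and 0.54 within numbers 1 and 2.

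Among the phosphofructokinases, which catalyse the main regulated step, Pfkm had the largest difference. Pfkm, the muscle isoform, had signals of 8.11 and 7.93 with ormeloxifene, against 7.66 and 7.83 with vehicle. The groups did not overlap; the difference was 0.27 ± 0.21, 0.45 within number 1 and 0.10 within number 2. Pfkl and Pfkp, the liver and platelet isoforms, differed by 0.04 ± 0.21 and -0.03 ± 0.23.

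The PFKFB enzymes set the level of fructose 2,6-bisphosphate, the activator of phosphofructokinase, and differed by -0.22 to 0.00, with 0 at an unadjusted p under 0.05. Pfkfb3, the isoform with the highest kinase activity, had signals of 7.15 and 6.61 with ormeloxifene, against 7.15 and 7.04 with vehicle. Ormeloxifene replicate 2 lay below the other arrays, and the difference was -0.22 ± 0.25. Without that array it was 0.05. Pfkfb4 differed by -0.17 ± 0.22, Pfkfb2 by -0.10 ± 0.29, and Pfkfb1, at the 17.2th percentile of signal, by 0.00 ± 0.30.

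In lower glycolysis 5 genes were measured, and their differences ran from -0.21 to 0.13, all with overlapping groups. Aldoa, the aldolase of muscle and most tissues, had signals of 8.05 and 8.45 with ormeloxifene, against 7.81 and 8.44 with vehicle, a difference of 0.13 ± 0.28. Pgk1, phosphoglycerate kinase, had signals of 8.23 and 7.27 with ormeloxifene, against 8.39 and 7.54 with vehicle. Both arrays numbered 2 were well below both numbered 1, and the group difference was -0.21 ± 0.39. Without ormeloxifene replicate 1 it was -0.69 and without ormeloxifene replicate 2 it was 0.26; the ormeloxifene group then holds an array of a single number. Aldoc, the brain aldolase, Pgam2, the muscle phosphoglycerate mutase, and Eno2, the neuronal enolase, differed by 0.02 ± 0.23, 0.07 ± 0.21 and -0.01 ± 0.21.

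Lactate dehydrogenase turns pyruvate into lactate and back, and both of its subunits had nearly equal group means. Ldha, the muscle-type subunit, had signals of 7.58 and 8.54 with ormeloxifene, against 7.86 and 8.32 with vehicle. Ldhb, the heart-type subunit, had signals of 9.40 and 10.04 with ormeloxifene, against 9.41 and 10.03 with vehicle. In both genes the arrays numbered 2 were above those numbered 1, and the group differences were -0.03 ± 0.34 for Ldha and -0.01 ± 0.30 for Ldhb. The 95% intervals, from -0.82 to 0.76 and from -0.72 to 0.70, include the difference between numbers as spread.

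Lactate leaves cells through monocarboxylate transporters, and Slc16a1 (MCT1) had signals of 7.27 and 6.82 with ormeloxifene, against 7.52 and 7.14 with vehicle. The groups overlapped by the higher ormeloxifene array, and the difference was -0.29 ± 0.25, with -0.25 within number 1 and -0.32 within number 2. It was -0.06 without ormeloxifene replicate 2 and -0.10 without vehicle replicate 1. Slc16a3 (MCT4), the export form of glycolytic cells, differed by -0.22 ± 0.24, with -0.59 within number 1 and 0.14 within number 2. Without vehicle replicate 1 it was -0.0060, without vehicle replicate 2 -0.44, without ormeloxifene replicate 1 -0.08 and without ormeloxifene replicate 2 -0.37.

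Pyruvate dehydrogenase kinases block the entry of pyruvate into the mitochondrial cycle, and their 4 genes did not lie to the same side. Pdk2 (probe set 17660289), the most widespread of these kinases, had signals of 8.48 and 8.33 with ormeloxifene, against 7.83 and 8.06 with vehicle. Both ormeloxifene arrays were above both vehicle arrays. The difference was 0.46 ± 0.21, a 1.38-fold higher mean, with a 95% interval from -0.03 to 0.96 (limma, adjusted p = 1.00, unadjusted p = 0.0639). It was 0.66 within number 1 and 0.27 within number 2, and with the number as a block its adjusted p was 0.701.

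Pdk1, a kinase induced by low oxygen, had signals of 6.29 and 6.19 with ormeloxifene, against 6.32 and 6.88 with vehicle. Vehicle replicate 2 stood apart from the other arrays. The difference was -0.36 ± 0.25, with -0.03 within number 1 and -0.69 within number 2. It was -0.08 without vehicle replicate 2. Pdk3 had signals of 7.52 and 7.43 with ormeloxifene, against 7.83 and 7.63 with vehicle, a difference of -0.26 ± 0.21, and its groups did not overlap.

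Pdk4, which is induced by fasting and by fatty acids, had signals of 6.27 and 6.89 with ormeloxifene, against 5.66 and 6.75 with vehicle. Vehicle replicate 1 was lowest and the groups overlapped; the difference was 0.37 ± 0.38, 0.61 within number 1 and 0.14 within number 2. Leaving out vehicle replicate 1 gave -0.17, and leaving out vehicle replicate 2 gave 0.92. Pdha1, the catalytic subunit that these kinases phosphorylate, had signals of 8.71 and 8.69 with ormeloxifene, against 8.70 and 8.68 with vehicle, and was the most even across arrays. Its difference was 0.01 ± 0.20, with a 95% interval from -0.46 to 0.48; the standard error comes mostly from the spread shared between genes.

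**Figure D2:**
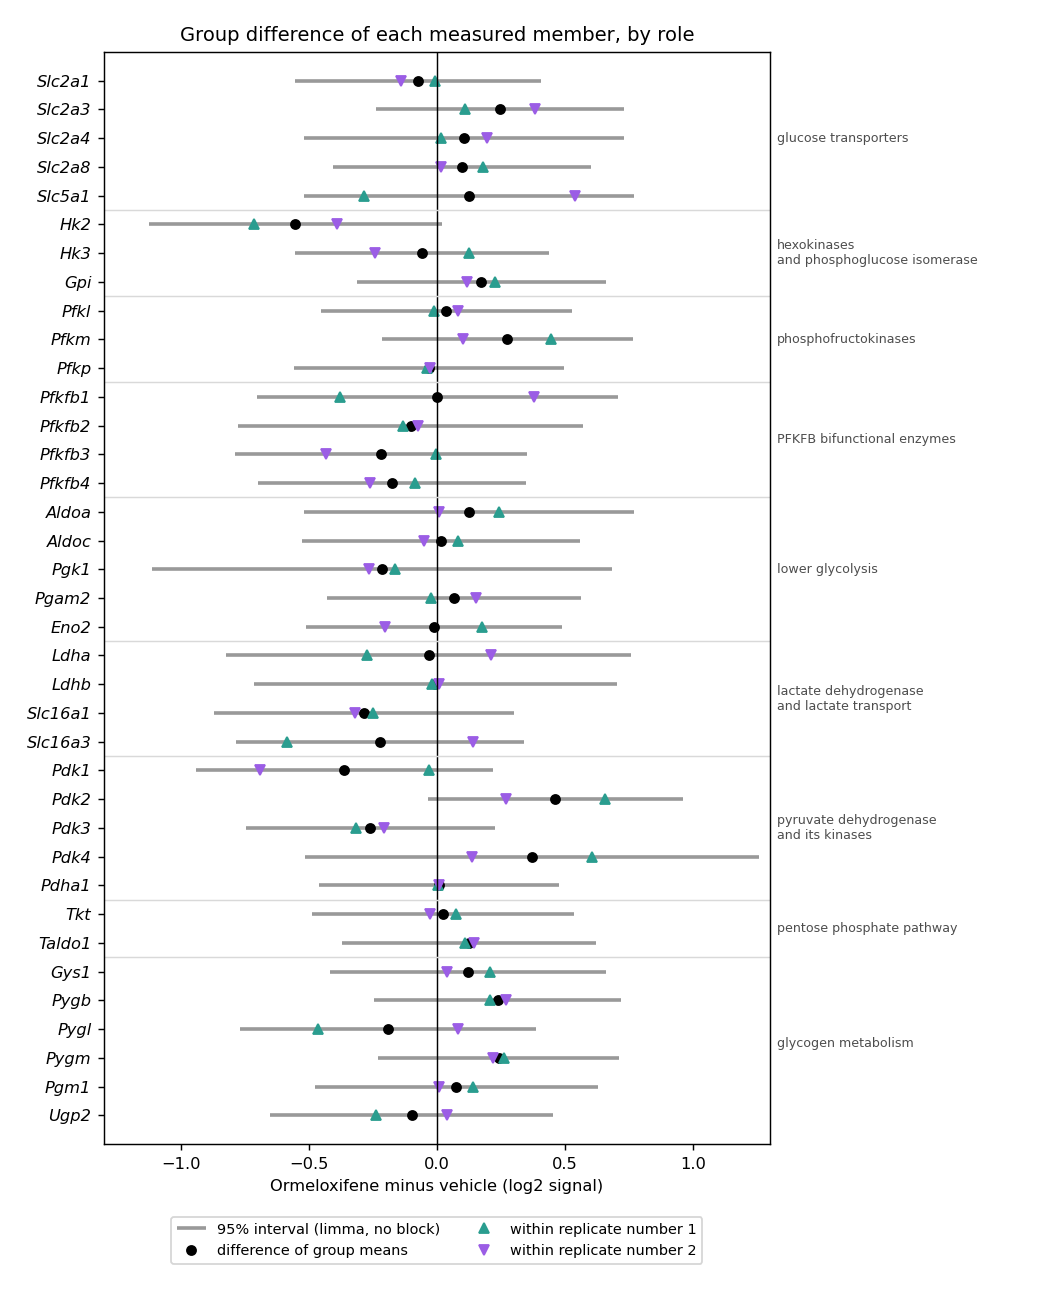
Difference between ormeloxifene and vehicle (horizontal axis, log2 signal) for the 37 measured genes, grouped by role; dots are differences of group means over 2 arrays each, grey lines 95% intervals by limma without a block, and triangles the differences within replicate number 1 (up) and number 2 (down). Every interval includes 0, with Hk2 at -0.55 and Pdk2 at 0.46 farthest from it.

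The pentose phosphate branch makes NADPH and ribose, and its 2 measured genes lay close to 0. Tkt, transketolase, had signals of 8.87 and 8.58 with ormeloxifene, against 8.80 and 8.61 with vehicle, a difference of 0.03 ± 0.22. Taldo1, transaldolase, had signals of 7.59 and 7.80 with ormeloxifene, against 7.48 and 7.65 with vehicle, a difference of 0.13 ± 0.21. The groups overlapped in both genes.

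Glycogen genes differed by -0.19 to 0.24, with 4 of 6 higher in mean signal and 0 at an unadjusted p under 0.05. Glycogen phosphorylases release glucose from glycogen, and Pygb, the brain isoform, had signals of 8.99 and 9.15 with ormeloxifene, against 8.79 and 8.88 with vehicle. Pygm, the muscle isoform, had signals of 7.98 and 7.91 with ormeloxifene, against 7.72 and 7.69 with vehicle. In both genes the groups did not overlap, and the differences were 0.24 ± 0.21 for Pygb and 0.24 ± 0.20 for Pygm.

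Pygl, the liver isoform, had signals of 5.81 and 6.37 with ormeloxifene, against 6.27 and 6.29 with vehicle. Ormeloxifene replicate 1 was the lowest array; the difference was -0.19 ± 0.25, and 0.09 without that array. Gys1, the glycogen synthase outside the liver, differed by 0.12 ± 0.23, Pgm1, which links glucose 1-phosphate to glucose 6-phosphate, by 0.08 ± 0.24, and Ugp2, which makes the UDP-glucose used for glycogen, by -0.10 ± 0.24.

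Differences between the replicate numbers were larger than differences between the groups in 27 of the 37 genes, or 73.0%, against 63.9% of all genes. These are differences of means over 2 arrays on each side. Their median size in the pathway was 0.26 for the numbers and 0.13 for the groups. The mean difference, number 2 minus number 1, was -0.90 for Pgk1, 0.86 for Pdk4, 0.71 for Ldha and 0.63 for Ldhb. Between replicates of the same group, Pgk1 differed by -0.95 with ormeloxifene and -0.85 with vehicle, and Pdk4 by 0.62 and 1.09. A difference of at least 0.5 between numbers was seen in 6 of the 37 genes, a share of 16.2%, against 14.1% of all genes. The differences between numbers ran to opposite sides within glycolysis, with Pgk1 lower and Ldha, Ldhb and Aldoa higher on the arrays numbered 2. The sign of the group difference was opposite within the 2 numbers in 13 of the 37 genes, or 35.1%, where it was in 47.7% of all genes.

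**Figure D3:**
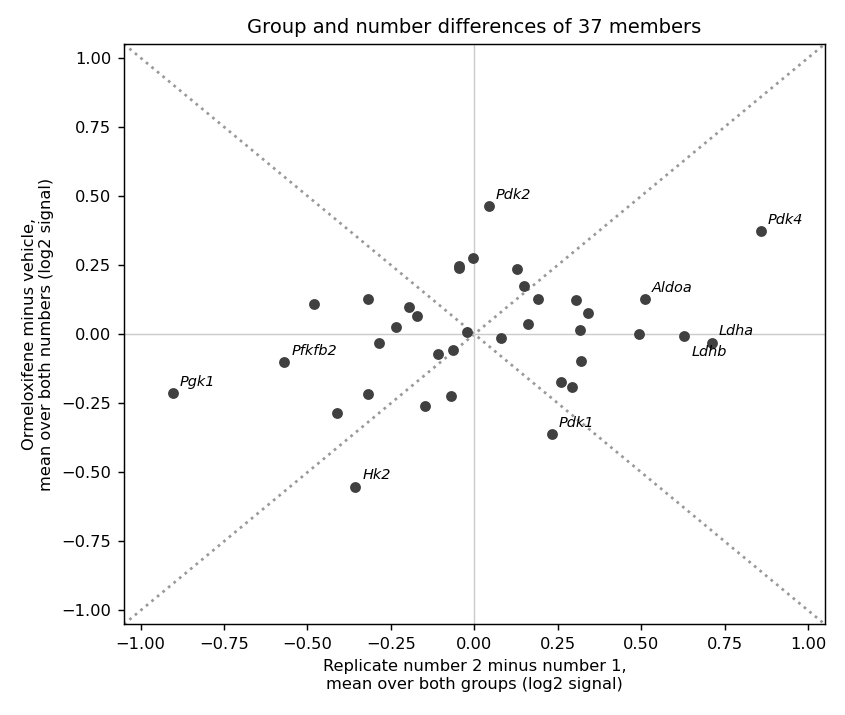
For the 37 measured genes, the difference of replicate number 2 minus number 1 averaged over both groups (horizontal axis) against ormeloxifene minus vehicle averaged over both numbers (vertical axis), both in log2 signal on equal scales; dotted diagonals mark equal size. Pgk1, at -0.90, and Pdk4, at 0.86, lie farthest out along the number axis, and 27 genes lie closer to the horizontal than to the vertical axis.

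The wider pathway was read from a further list of 74 genes, of which 62 were measured. Without a block, limma gave 0 an adjusted p under 0.05 and 0 an unadjusted p under 0.05, and with the number as a block 1 had an unadjusted p under 0.05, Slc2a6, where 6.76% of all genes had one. Their median difference was 0.04, with 40 higher and 22 lower in mean signal, or 64.5% higher against 53.4% over all genes. Within numbers 1 and 2 the median was 0.09 and -0.03, beside 0.04 and -0.02 over all genes. The smallest p was that of Slc2a6 (GLUT6), with signals of 6.09 and 5.74 with ormeloxifene, against 5.26 and 5.58 with vehicle, a difference of 0.50 ± 0.23. Phkg1, a catalytic subunit of phosphorylase kinase, differed by 0.59 ± 0.32, with 1.24 within number 1 and -0.07 within number 2.

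Arrdc4, an arrestin-family gene induced by glucose that limits glucose uptake, differed by -0.38 ± 0.21 and did not overlap between groups. Its relative Txnip differed by 0.17 ± 0.21. Bsg, the chaperone of the lactate transporters, differed by 0.32 ± 0.21. In Txnip and Bsg both ormeloxifene arrays lay above both vehicle arrays. Groups were apart in 7 of the 62 further genes, or 11.3%, against 25.7% of all genes. The oxygen-regulated factor Hif1a, which drives many glycolytic genes in low oxygen, differed by -0.20 ± 0.23.

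Markers of uterine cell types were present. Among the brightest were Vim and Dcn for stroma, at the 99.9th percentile of signal each, Tagln and Actg2 for smooth muscle, at the 99.8th, and Cldn3 and Epcam for epithelium, at the 98.1th and 90.8th. Smooth muscle markers were higher in mean signal in 8 of 8 genes, at a median of 0.28, with summed linear signals of 14498 and 12958 on the ormeloxifene arrays and 11910 and 10742 on the vehicle arrays. Of the 37 genes, 20 lay on the same side, or 54.1% against 53.4% of all genes, among them Pfkm, Pygm, Pygb and Pdk2. Pgam2, the muscle phosphoglycerate mutase, differed by 0.07 ± 0.21 and Ldha, the muscle-type subunit, by -0.03 ± 0.34. The part of muscle content in these differences was not tested. Of the 8 smooth muscle markers, limma gave 0 an unadjusted p under 0.05 without a block and 1, Synpo2, with the number as a block. Over all genes the shares were 2.2% and 6.76%, and 53.4% were higher in mean signal. Proliferation genes were lower in mean signal in 10 of 10, at a median of -0.63, with summed signals of 985 and 1114 with ormeloxifene, against 1316 and 2003 with vehicle. Of these 10 genes, limma gave 5 an unadjusted p under 0.05 without a block and 9 with it, against 2.2% and 6.76% of all genes. Adjusted over all genes, 0 of the 10 passed in either fit.

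Of the 37 genes, 17 lay on the same side as the proliferation genes, among them Hk2, Pdk1, Pdk3 and Slc16a1. Over all genes, 8464 of 18166 did so. Pdk1 differed by only -0.03 within number 1, against -0.69 within number 2. The part of proliferation in these differences was not tested. Epithelial markers, with summed signals of 2728 and 2661 with ormeloxifene and 2421 and 2932 with vehicle, overlapped between the groups. Of the 11 markers, 4 were higher and 7 lower in mean signal, at a median of -0.11, and 8 had opposite signs within the 2 numbers. Among them Elf3 differed by -0.48 ± 0.21 with groups apart, at an unadjusted p of 0.0492 (limma). Stromal markers overlapped too, at 20782 and 19204 with ormeloxifene, against 18681 and 19450 with vehicle. Adipocyte markers, of interest for Slc2a4 and Pdk4, summed to 420 and 417 with ormeloxifene, against 418 and 367 with vehicle. Skeletal muscle markers, of interest for Pygm and Pgam2, summed to 1548 and 1152 with ormeloxifene, against 1581 and 1359 with vehicle. That sum mostly reflects Acta1, at the 98.6th percentile of signal, as the others lay at the 27.4th to 48.3th. Leukocyte markers summed to 1164 and 1247 with ormeloxifene, against 1189 and 1175 with vehicle, and overlapped, although S100a9 differed by -0.57 ± 0.23 with groups apart, at an unadjusted p of 0.0423 (limma). Of the 9 leukocyte markers, 6 were higher in mean signal with ormeloxifene, at a median of 0.11. S100a8 differed by 0.33 ± 0.25, at the 4.3th percentile of signal. Elf3 and S100a9 were picked out after their values were seen, and neither passed after adjustment. Each was the only marker of its list at an unadjusted p under 0.05 (limma, no block), where 2.2% of all genes had one. The 4 endothelial markers were higher in 4 of 4, at a median of 0.21, where 53.4% of all genes were higher. For erythroid cells only 2 markers were measured, with summed signals of 55.5 and 80.0 with ormeloxifene, against 61.1 and 68.1 with vehicle.

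**Figure D4:**
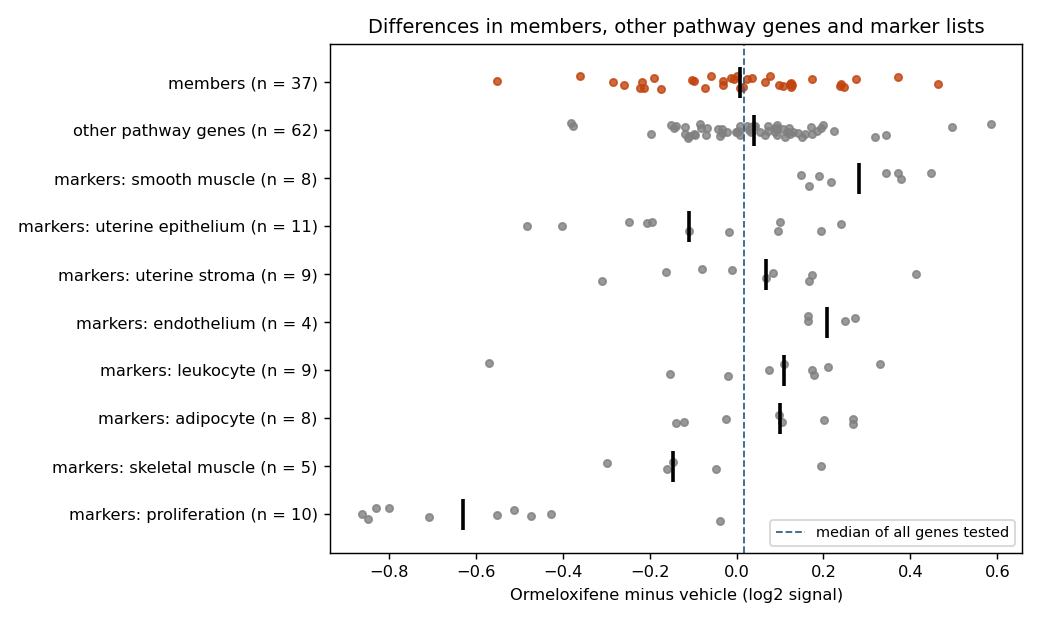
Difference between ormeloxifene and vehicle (horizontal axis, log2 signal) for each measured gene of the pathway, of the further pathway list and of 8 marker lists; each dot is a gene (vertical scatter within a row is for legibility), black bars are list medians and the dashed line is the median of all genes, 0.02. The pathway genes centre on 0.01, smooth muscle markers on 0.28 and proliferation genes on -0.63.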

How the data were processed

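The deposited table holds log2 signals for 36685 probe sets on 4 arrays, made by the authors with Affymetrix Expression Console, per the submitters' processing notes; no version, summary method or genome build is stated there. That the scale is log2 was read from the values (0.92 to 13.59). Column medians ran from 5.67 to 5.93, so quantile normalization over all probe sets was applied. Of the probe sets, 18511 had 1 gene symbol, 575 several and 17599 none; 18394 were matched to GRCr8 for names. The brightest probe set was kept per gene, leaving 18166.

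Groups were compared with limma 3.58.1 in R 4.3.3 (lmFit and eBayes, 2-sided, Benjamini-Hochberg over all genes, threshold 0.05), with 2 residual degrees of freedom and 7.55 after moderation, and tested on simulated data. The number of arrays limits precision. The p-values set a difference against spread between labelled biological replicates, moderated toward the spread shared between genes. Without the block that spread includes the difference between replicate numbers. Signal over background was not in the table. The labels' replicate numbers were tried as a block; same-numbered arrays deviated together (correlation 0.475). Members, lists and tests were chosen with earlier results of these data known. Values by array are given for the 8 smallest p, the brightest and largest difference of each role, the 4 largest number differences and 8 usual examples (22 genes), and for others where few.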

Additional observations from a re-analysis of the deposited data

How the results depend on the processing

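Of the 12 alternative settings, 4 leave out 1 array. In the others 0 of the 37 genes passed the adjusted threshold (limma). The lowest adjusted p was 0.506, that of Hk2 with the replicate block and no normalization between arrays. The settings are not separate checks. Each of the 37 genes had 1 probe set, so averaging a gene's probe sets or testing all probe sets could not change its difference. The block, the intensity trend and leaving out genes of low signal did not change the differences of the genes kept either. The number of genes at an unadjusted p under 0.05 (limma) was 0 in the reported fit. It was 2 with the replicate block, where 6.76% of all genes had one. With that block and no normalization it was 2, beside 6.4% of all genes. With the 25% of genes of lowest signal left out it was 2 of 35, beside 2.66% of the genes kept. With an intensity trend it was 2, beside 2.45% of all genes. In those 4 settings the 2 genes were Hk2 and Pdk2. Leaving out 1 array moved the median of the pathway between -0.0532 and 0.0936 and that of the further pathway list between 0.0161 and 0.0676. On the values as deposited, with and without the block, the sign turned for Ldhb (0.0041) and Pfkfb1 (-0.0055). With arrays centred on their medians it turned for Pdha1 (-0.0088), Pfkfb1 (-0.0262) and Aldoc (-0.0071). It also turned on leaving out 1 array in 11 of the 22 genes given by array, with ranges of -0.16 to 0.0140 for Slc2a1, -0.18 to 0.39 for Slc2a4, -0.48 to 0.0501 for Pfkfb3, -0.19 to 0.44 for Aldoa, -0.69 to 0.26 for Pgk1, -0.51 to 0.45 for Ldha, -0.33 to 0.31 for Ldhb, -0.17 to 0.92 for Pdk4, -0.0047 to 0.0187 for Pdha1, -0.12 to 0.17 for Tkt and -0.47 to 0.0936 for Pygl. The 9 genes with groups apart are all among the 22, and their sign cannot turn in this way. Outside the 22 the sign turned too, among others for Slc5a1 (-0.24 to 0.49), Pfkl (-0.07 to 0.14) and Ugp2 (-0.33 to 0.13). It did not turn for Pfkfb4 or Slc16a3. Each turned value lay within the 95% interval of its reported difference. Hk2 ran from -0.81 to -0.29 and Pdk2 from 0.35 to 0.58. Over all genes the replicate block gave 5 at an adjusted p under 0.05 (limma), against 0 without it, none of them among the 37. On the values as deposited the block gave 84, against 0 without it, again none among the 37. The degrees of freedom after moderation were 39.6 in that block fit, against 8.15 in the block fit on normalized values. The cause was not tested.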
